A study of Solanum lycopersicum with 17 samples.

Results

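Fruit of the parthenocarpic tomato line INO-IaaM was set against wild-type fruit that still held its seeds, in 3 arrays each of the 17 in the series. All 10038 probe sets of the tomato array other than its control and reporter probe sets were compared, out of 10209 on the array. The INO-IaaM line carries iaaM, a bacterial gene whose enzyme turns tryptophan into a precursor of auxin, behind the promoter of INO (INNER NO OUTER), an Arabidopsis gene that is active in the outer integument of the ovule. The other groups used here were DefH9-IaaM (the same enzyme behind the promoter of the snapdragon gene DefH9, which is active in placenta and ovules), INO-RolB (the INO promoter with rolB, a bacterial gene that alters auxin responses), DefH9-RolB (the DefH9 promoter with rolB, 2 arrays, used for the shared estimate of spread and for levels over all arrays), wild-type fruit from which the seeds had been taken by hand (control no seeds), and wild-type fruit with seeds (control with seeds). Arrays are numbered by replicate, and seeded array 1 means replicate 1 of the control with seeds. Every array was made from RNA of 8 pooled fruits and, as the submitters state it, stood for 1 plant of its line. The labels give neither the age or ripeness of the fruit, nor the seed content of the INO-IaaM fruit, nor the number of independent insertions.

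In a fertilised tomato ovary, auxin and gibberellin made around and in the young seeds drive the growth of the fruit, and a parthenocarpic fruit grows without fertilisation. Auxin made in the ovule by a transgene can take the place of that signal. Wild-type fruit with seeds also brings the RNA of the embryo, the endosperm and the seed coat to the array. A lower signal in bulk fruit therefore cannot be told apart as fewer cells of a type or as less RNA per cell. How much seed tissue stayed in the fruit whose seeds were taken by hand was not tested.

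The label fruit fitted the fruit-specific transcript 2A11, which lay between 14.22 and 14.32 on the log2 scale in the 3 INO-IaaM arrays and between 14.16 and 14.23 in seeded wild type. The 6 fruit markers, 2A11 among them, averaged 10.77 to 11.02 per INO-IaaM array and 10.06 to 10.20 per seeded array. One of the 6, TPRP-F1, averaged 6.68 in INO-IaaM but 3.77 in seeded and 4.47 in seed-removed wild type, both within the silent range given below. The 7 markers of ripe fruit averaged 13.16 to 13.30 per INO-IaaM array, against 12.78 to 12.98 per seeded array, and 3 markers of green tissue averaged 9.98 to 10.18 against 9.54 to 10.61. Levels of 5.49 or below were treated as the silent range, because 61 reporter probe sets for genes of other organisms lay between 2.45 and 5.49 on all 17 arrays. RNA integrity was read from the control probe sets for actin and gapdh, as their 5′ signal less their 3′ signal, which was -0.57, -0.56 and -0.37 in INO-IaaM and -0.74, -0.59 and -0.89 in seeded wild type. These groups did not overlap. With this 5′ minus 3′ signal as a covariate in the fit, 31 of the 63 genes that the rule named and that were called kept their call. The 32 that lost it were AGAL, TSW12, TAS14, AAP2, PT2, GABA-TP2, CPS, exp18, IAA27, AAP1, IAA3, IAA2, ADC and SAM1 among the falls, and SPS, GSH1, cat1, PRO1, sus3, TDR4, tft8, GSH2, TDR8, MDHAR, ACS4, LOC606712, TIP, MAN2, LOC543878, ER1, CHI9 and GluB among the rises. The other part of this measure in the results was not tested.

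INO-IaaM fruit differed from seeded wild-type fruit at 1620 probe sets, which is 16.1% of those tested (limma, Benjamini-Hochberg adjusted p under 0.05). Of these, 829 were higher (8.26%) and 791 lower (7.88%), and 3181 (31.7%) had an unadjusted p under 0.05. The 3 arrays of one group all lay on one side of those of the other at 3589 probe sets (35.8%), with INO-IaaM above at 2128 (21.2%) and below at 1461 (14.6%). Among the 909 probe sets with 1 gene in the annotation, 166 were called (18.3%), 79 higher (8.69%) and 87 lower (9.57%). With 1 probe set per gene, as in the gene lists below, 75 of 803 genes were higher and 85 lower. The share called was thus larger among these genes than the 16.1% of all probe sets. The list shares below count genes, so the 16.1% beside them is a low background. Leaving out 1 array at a time gave 924 calls without seeded array 1 and 836 without seeded array 3. Large differences were mostly falls: 328 called probe sets were lower by at least 1 on the log2 scale, a 2-fold change (3.27%), and 90 were higher by as much (0.897%). At a difference of at least 2 the counts were 110 lower (1.1%) and 17 higher (0.169%). In 95 of the falls (0.946%) the mean level ended in the silent range in INO-IaaM and lay above it in seeded wild type. The median difference over all probe sets was 0.06. In 157 of the called probe sets both group means lay in the silent range.

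**Figure D1:**
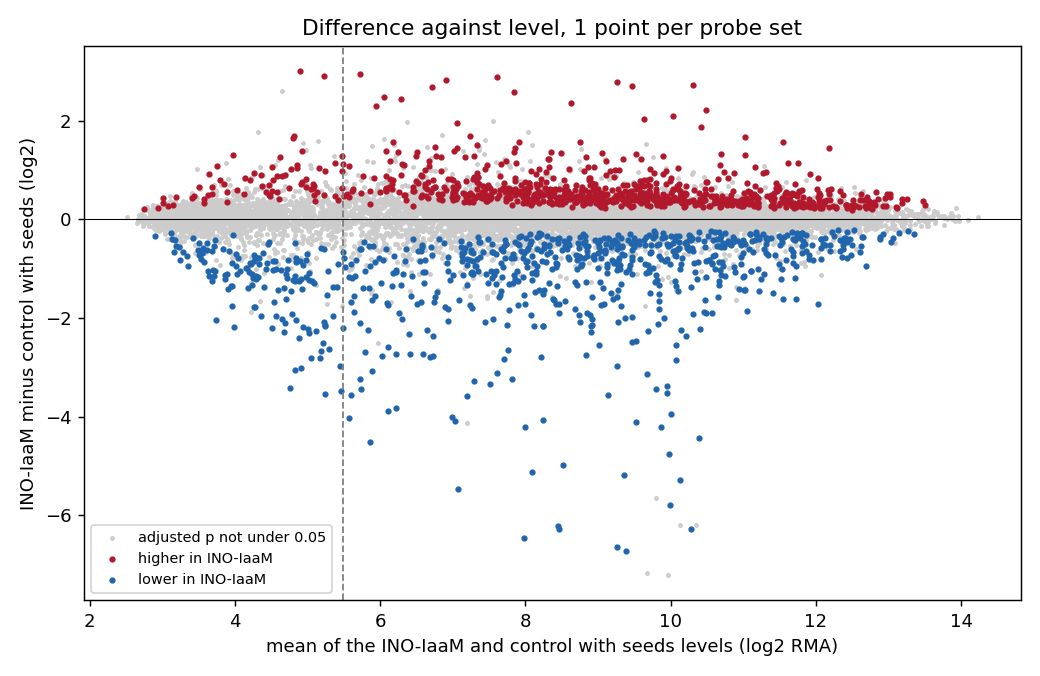
Difference between INO-IaaM and control with seeds (log2) against the mean level of both groups (log2 RMA), 1 point per probe set, with 829 called higher in red, 791 called lower in blue and the top of the silent range as a dashed line. The largest differences point down, to -7.21, and few rises pass 2.

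The wild-type fruit without seeds helped to order the falls. One set of genes was low in INO-IaaM and also far below seeded wild type in the seed-removed fruit. The other set was lower in INO-IaaM than in both controls. The comparisons with the 2 controls share the INO-IaaM arrays, so their values are given side by side and not as support for each other.

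The first set was led by genes of raffinose-type sugars, which plants store in maturing seeds. AGAL, an alpha-galactosidase that removes galactose from these sugars, had levels of 3.65, 8.35 and 3.96 in INO-IaaM, 11.80, 10.86 and 12.12 in seeded wild type and 5.09, 3.73 and 7.96 in seed-removed wild type. INO-IaaM replicates 1 and 3 were in the silent range and replicate 2 was not, and all 3 were below every seeded array. The difference was -6.27 ± 1.27 (log2, SE; adjusted p = 0.0058), and it was -7.79 without INO-IaaM replicate 2. GolS-1, galactinol synthase, which makes the galactose donor for raffinose, had 3.70, 7.99 and 4.32 in INO-IaaM and 11.74, 11.01 and 11.92 in seeded wild type, a difference of -6.22 ± 1.07 (adjusted p = 0.0022). Neither gene differed from seed-removed wild type past the threshold, with differences of -0.27 and -1.18.

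Isocitrate lyase (LOC544276), the glyoxylate cycle enzyme with which oil-storing seeds make sugar from fat, had 6.33, 8.70 and 7.76 in INO-IaaM and 12.48, 12.01 and 12.55 in seeded wild type. It fell by 4.75 on the log2 scale (adjusted p = 0.00034). Its 9.96, 9.11 and 10.49 in seed-removed fruit were all above the INO-IaaM arrays, with a difference of -2.25 that missed the threshold (adjusted p = 0.053). TAS14, a dehydrin, fell by 1.98, and the call did not hold when seeded array 1 or 3 or INO-IaaM array 3 was left out (-2.26 to -1.45 over the 6 left-out arrays, adjusted p up to 0.11). Of the 6 genes measured in the list of seed storage, late embryogenesis and raffinose genes, these 4 fell, MAN2 rose and MAN1 lay in the silent range, a share of 83.3% beside 16.1% of all probe sets, with a list median of -3.37 against 0.06 over all probe sets. Like the other gene lists, this one was chosen with earlier results of these data known. Its share and median are therefore a description and not a test. The 3 seed markers averaged 4.56 to 8.35 per INO-IaaM array, 11.30 to 12.20 per seeded array and 5.92 to 8.80 per seed-removed array. These markers are AGAL, GolS-1 and isocitrate lyase again, so their averages repeat the values above and are no further evidence.

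Genes of other roles showed the same order of levels. CHS2, a chalcone synthase at the entry to flavonoids, had 8.02, 8.47 and 5.89 in INO-IaaM and 11.53, 11.10 and 12.11 in seeded wild type, against 8.09, 7.45 and 7.75 in seed-removed fruit. It fell by 4.11 against seeded fruit (adjusted p = 0.00097) and its difference from seed-removed fruit was -0.30. CHS1 stood at 7.39, 8.40 and 6.94 in INO-IaaM and 9.25, 7.96 and 10.23 in seeded wild type, and these groups overlapped (difference -1.57, adjusted p = 0.083). THT1-3, which joins hydroxycinnamic acids to tyramine, had 3.85, 4.07 and 3.60 in INO-IaaM, all in the silent range, and 6.55, 5.89 and 7.10 in seeded wild type. Of 8 phenylpropanoid, flavonoid and amide genes, CHS2 and THT1-3 fell and none rose. This share of 25% stands beside 16.1% of all probe sets and 18.3% of those with 1 gene.

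GLB2, a plant haemoglobin, gave one of the most even falls. Its levels were 5.01, 5.10 and 4.83 in INO-IaaM, 8.72, 9.17 and 9.06 in seeded wild type and 6.20, 5.07 and 6.36 in seed-removed wild type. The fall of 4.01 ± 0.32 (adjusted p = 8.1e-06) ended in the silent range, so its full size was not measured. SNF4, a regulatory subunit of the sugar-sensing kinase SnRK1, had 8.09, 8.89 and 7.80 in INO-IaaM and 11.65, 11.50 and 11.73 in seeded wild type, with 8.70, 8.50 and 9.13 in seed-removed fruit. It fell by 3.37 ± 0.30 (adjusted p = 1.9e-05). GAL83, a scaffold subunit of the same kinase, fell by 0.80, with arrays of 8.19 to 8.21 in INO-IaaM and 8.90 to 9.14 in seeded wild type. It is named here for its kinase and not as part of the first set. Its 8.85, 8.37 and 8.62 in seed-removed fruit were all above the INO-IaaM arrays (difference -0.41, adjusted p = 0.12). SNF1, the catalytic subunit, had a difference of -0.25 (adjusted p = 0.19), and Sip1 one of -0.02.

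The gene that the array annotation names gad2 carries the RefSeq synonyms GAME11 and 16DOX, a dioxygenase of steroidal alkaloid synthesis. It had 7.99, 8.88 and 7.22 in INO-IaaM, 12.07, 11.64 and 12.23 in seeded wild type and 8.21, 6.83 and 8.62 in seed-removed fruit, a fall of 3.95 against seeded fruit (adjusted p = 0.00014). GABA-TP2, also known as GAME12, a transaminase of the same pathway, had 5.92, 5.64 and 5.49 in INO-IaaM and 7.05, 6.42 and 6.80 in seeded wild type. Its difference of -1.07 did not keep its call when seeded array 1 or 3 or INO-IaaM array 2 or 3 was left out (-1.24 to -0.93, adjusted p up to 0.086). DREB1, a transcription factor of dehydration and cold responses that was chosen after its values were seen, fell by 2.28, with 7.31 to 8.08 in INO-IaaM, 9.92 to 10.22 in seeded and 7.45 to 7.70 in seed-removed fruit.

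TSW12, a lipid transfer protein, had 5.95, 6.81 and 5.31 in INO-IaaM and 11.37, 10.24 and 11.40 in seeded wild type, and 5.57, 4.42 and 7.90 in seed-removed fruit. Its difference of -4.98 ± 1.29 (adjusted p = 0.02) ranged from -5.37 to -4.62 with any one of the 6 arrays left out, and the call did not hold when array 1 or 3 of either group was left out (adjusted p up to 0.068). EXPA10, an expansin, had 5.68, 6.63 and 5.76 in INO-IaaM, 7.86, 7.17 and 8.49 in seeded wild type and 5.28, 5.21 and 5.53 in seed-removed fruit, and fell by 1.82. FLACCA, the sulfurase that activates the last enzyme of abscisic acid synthesis, fell by 0.83, with 8.88 to 9.22 in INO-IaaM and 9.71 to 10.11 in seeded wild type.

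**Figure D2:**
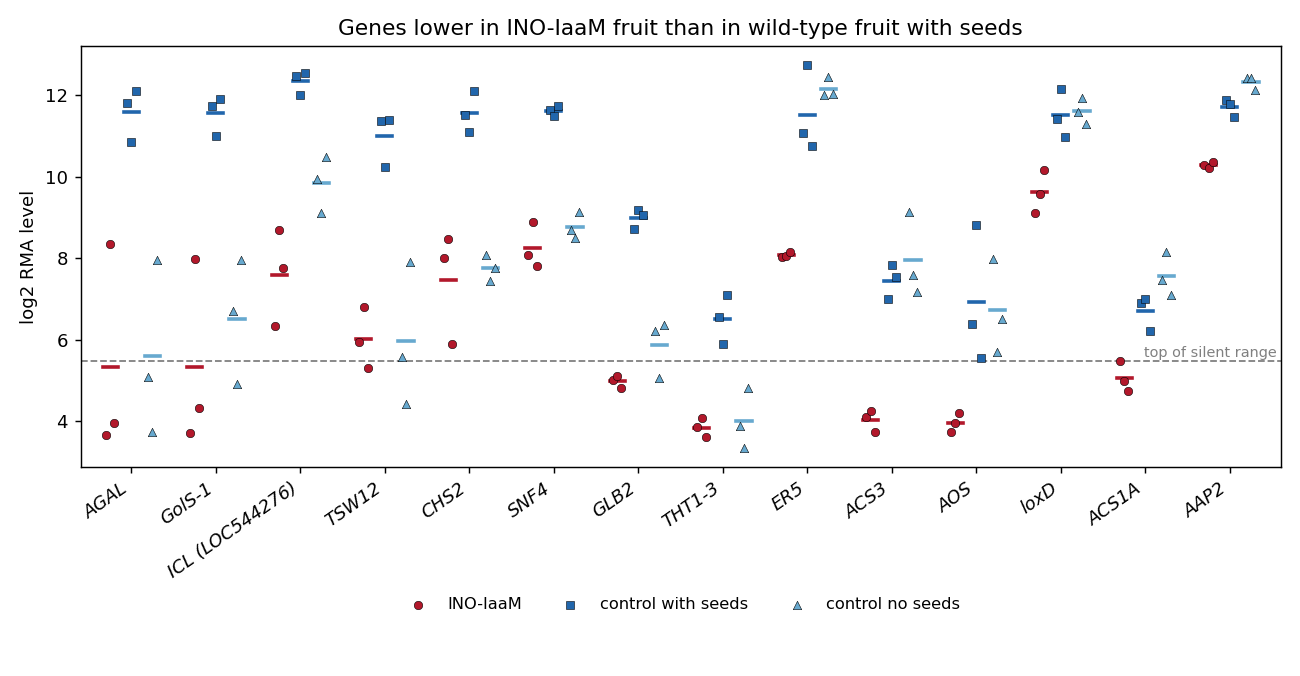
Levels (log2 RMA) of 14 genes on each array of INO-IaaM, control with seeds and control no seeds, with group means as bars and the top of the silent range as a dashed line. From AGAL to THT1-3 the seed-removed fruit lies below the seeded fruit, and from ER5 to AAP2 every array of both controls lies above every INO-IaaM array.

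The second set held genes of ethylene and jasmonate. ER5, an ethylene-responsive protein related to late embryogenesis proteins, was at 8.03, 8.05 and 8.15 in INO-IaaM, 11.07, 12.75 and 10.75 in seeded wild type and near 12 on all 3 seed-removed arrays, the highest at 12.46. Its difference was -3.45 ± 0.61 from seeded fruit (adjusted p = 0.0027) and -4.09 from seed-removed fruit (adjusted p = 0.0029), with no overlap of arrays in either comparison. ACS3, an ACC synthase of ethylene synthesis, was in the silent range in INO-IaaM at 4.11, 4.24 and 3.72, against levels from near 7 to 7.83 in seeded and 9.13, 7.59 and 7.17 in seed-removed fruit. Its differences were -3.43 (adjusted p = 0.00064) and -3.94 (adjusted p = 0.0016). Against the seed-removed control 573 probe sets were called (5.71%), 201 higher (2%) and 372 lower (3.71%), and 2416 had an unadjusted p under 0.05 (24.1%). With 1 array left out the count lay between 247, without INO-IaaM array 2, and 531.

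ACS1A, another ACC synthase, had 5.48, 4.98 and 4.73 in INO-IaaM, levels from 6.23 to near 7 in seeded and 7.46, 8.15 and 7.09 in seed-removed fruit, with differences of -1.64 and -2.51. ACS4, the ACC synthase best known from ripening, was the only one of the 13 measured ethylene synthesis genes to rise. It had 12.03, 12.03 and 12.48 in INO-IaaM and 10.66, 11.29 and 11.16 in seeded wild type, a difference of 1.14 (adjusted p = 0.023). This call did not hold when seeded array 1 or 3 or INO-IaaM array 3 was left out (0.95 to 1.27, adjusted p up to 0.092). SAM1 and SAM3, which make S-adenosylmethionine, fell by 0.39 and 0.25, and the SAM1 call did not hold when seeded array 1 or INO-IaaM array 2 was left out (-0.43 to -0.30, adjusted p up to 0.058). The other 8 genes, ACS2 and ACO4 among them, did not pass the test. The share called was 38.5% beside 16.1% of all probe sets. ACS3, ACS1A, SAM1 and SAM3 were also the 4 members below seed-removed fruit.

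Of 34 measured genes of ethylene perception and signalling, 3 rose and 5 fell. This share of 23.5% stands beside 16.1% over all probe sets and 18.3% of those with 1 gene. CTR1, the kinase that keeps the pathway off without ethylene, rose by 0.71 ± 0.11 (adjusted p = 0.0011), with 10.43, 10.55 and 10.43 in INO-IaaM, 9.74, 9.78 and 9.74 in seeded and 10.11, 10.28 and 10.15 in seed-removed fruit. The EIN3-like factors moved in different directions. EIL2 fell by 1.41 (9.86 to 10.57 in INO-IaaM, 11.51 to 11.86 in seeded fruit), EIL3 fell by 0.40, EIL4 rose by 0.53, and EIL1 differed by 0.07 (adjusted p = 0.65). The receptor ETR5 fell by 0.79, and ERF3, an ethylene response factor, by 1.00. The other receptors measured, ETR1, ETR2, ETR4 and ETR6, had differences of -0.27 to 0.34 and did not pass.

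A pair of jasmonate genes was low in INO-IaaM. AOS, allene oxide synthase, lay in the silent range at 3.73, 3.95 and 4.19 in INO-IaaM, against 6.40, 8.82 and 5.54 in seeded and 7.99, 5.70 and 6.50 in seed-removed fruit. Its difference from seeded fruit was -2.96 ± 0.72 (adjusted p = 0.015) and it was -2.01 without the high seeded array 2. The call was lost when only the 2 groups were fitted. The lipoxygenase loxD, which feeds AOS, had 9.11, 9.59 and 10.16 in INO-IaaM, 11.41, 12.15 and 10.99 in seeded and 11.58, 11.94 and 11.31 in seed-removed fruit, with differences of about -1.9 and -1.99. Downstream AOC and OPR3 had differences of -0.33 and -0.51 from seeded fruit and did not pass. Of 14 lipoxygenase, lipid transfer and lipid genes, TSW12, AOS and loxD fell and none rose, a share of 21.4%, near the 16.1% of all probe sets.

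Amino acid permeases followed. AAP2 had 10.29, 10.21 and 10.36 in INO-IaaM, 11.90, 11.80 and 11.48 in seeded and 12.43, 12.44 and 12.13 in seed-removed fruit. Its differences were -1.44 (adjusted p = 0.0071) and -2.04 (adjusted p = 0.0027). AAP3, chosen after its values were seen, was at 4.28 to 4.44 in INO-IaaM and 5.53 to 7.06 in seeded wild type, a difference of -1.95, but its difference from seed-removed fruit was -0.48 (adjusted p = 0.32). AAP1 had differences of -0.76 and -1.39, and the first of these calls held, of the 6 arrays left out in turn, only when that array was INO-IaaM 2 (-0.89 to -0.64, adjusted p up to 0.13). Arginine decarboxylase ADC, of polyamine synthesis, had differences of -0.46 and -0.49. The gene yfe37, which RefSeq also lists as GAD3, had differences of -1.89 and -2.47. CBF1, a cold response factor chosen after its values were seen, had 9.10, 9.66 and 9.79 in INO-IaaM and 11.09 to 11.57 in seeded wild type, with a difference of -1.87 (adjusted p = 0.034) and one of -2.15 from seed-removed fruit.

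The auxin response genes that were called showed small differences. Of 8 measured genes 3 fell and none rose, a share of 37.5% beside 16.1% of all probe sets, with a list median of -0.22, and 5 of the 8 had both means in the silent range. IAA3, an auxin response repressor, had 10.82, 10.78 and 10.71 in INO-IaaM and 11.37, 11.23 and 11.19 in seeded wild type. Its difference was -0.49 ± 0.14 (adjusted p = 0.035), the call did not hold when any one of the 6 arrays was left out (adjusted p up to 0.11), and its other probe set differed by -0.07. IAA27, of the same family, differed by -0.81, and its other probe set by 0.06 (adjusted p = 0.75). Its call did not hold when array 1 of either group, seeded array 3 or INO-IaaM array 2 was left out (-0.98 to -0.69, adjusted p up to 0.10). IAA2 was called lower by 0.49 within the silent range, and its other probe set differed by 0.02. Its call did not hold when seeded array 3 or INO-IaaM array 2 or 3 was left out (-0.58 to -0.36, adjusted p up to 0.10). The largest difference in the list was a rise of 1.02 in ARPI that did not pass (adjusted p = 0.18). ARPI had 5.73, 3.42 and 2.81 in INO-IaaM and 2.89 to 3.13 in seeded wild type. No auxin gene was called without INO-IaaM array 2, and 1 without INO-IaaM array 1. For gibberellin, 20ox-2 and CPS, which act in its synthesis, were called lower by 1.05 and 0.89, both with group means in the silent range. The CPS call did not hold without INO-IaaM array 1 (-1.14 to -0.61 over the 6 left-out arrays, adjusted p up to 0.051) or when only these groups were fitted.

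Several defence proteins, of a kind that ethylene or infection is known to induce, were among the genes that rose. GluB, a basic beta-1,3-glucanase, had 12.06, 9.29 and 10.59 in INO-IaaM and 7.37, 9.06 and 7.14 in seeded wild type, with 9.75, 11.09 and 10.69 in seed-removed fruit. INO-IaaM exceeded seeded fruit by 2.79 ± 0.72 (adjusted p = 0.02) and seed-removed fruit by only 0.14 (adjusted p = 0.93). CHI9, a basic chitinase, had 12.83, 10.87 and 11.33 in INO-IaaM and 8.68, 9.89 and 8.27 in seeded wild type, a rise of 2.73. Seed-removed fruit had 10.14, 11.72 and 9.77, and the difference from it was 1.13 (adjusted p = 0.35). Neither call against seeded fruit held when seeded array 1 or 3 or INO-IaaM array 1 was left out. With 1 array left out, differences were 2.08 to 3.47 for GluB and 2.16 to 3.20 for CHI9 (adjusted p up to 0.081). In both genes replicate 1 was the highest INO-IaaM array and replicate 2 the highest seeded array.

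ER1, a proteinase inhibitor known to respond to ethylene, was higher by 2.69 ± 0.54 (adjusted p = 0.0056), with 11.57, 9.95 and 10.93 in INO-IaaM, 8.25, 9.03 and 7.10 in seeded and 9.41, 10.35 and 9.77 in seed-removed fruit. NP24-I, an osmotin-like protein, rose by 1.56, with 12.64, 11.89 and 12.45 in INO-IaaM and 10.96, 11.09 and 10.24 in seeded wild type. Its levels in seed-removed fruit were 11.56, 11.87 and 11.73, a difference of 0.61 that did not pass (adjusted p = 0.21). TGAS118, a defensin-like protein, rose by 1.14 ± 0.17 (adjusted p = 0.00091) and also exceeded seed-removed fruit, by 0.75 (adjusted p = 0.024), with 12.67, 12.07 and 12.21 in INO-IaaM, 11.36, 11.42 and 10.77 in seeded and 11.74, 11.46 and 11.52 in seed-removed fruit. Of 16 measured defence genes 6 rose and none fell, a share of 37.5% beside 16.1% of all probe sets (8.26% higher), and the list median was 0.60. With the 5′ minus 3′ signal in the fit 2 of these calls were left, and 3 without INO-IaaM array 1. P4, a member of the PR1 family, had 9.97, 7.28 and 8.42 in INO-IaaM and 7.56, 6.90 and 5.21 in seeded wild type (difference 2.00, adjusted p = 0.054). LOC543878, a PR5 protein outside that list, had 9.81, 6.01 and 8.31 in INO-IaaM against 5.16, 5.91 and 5.03 in seeded wild type. Seed-removed fruit had 7.21, 6.82 and 7.66 (difference 0.81, adjusted p = 0.58). The difference of 2.68 from seeded fruit kept its call, of the 6 arrays left out in turn, only without INO-IaaM array 2. It was 1.79 without array 1 and 3.70 without array 2 (adjusted p up to 0.148).

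**Figure D3:**
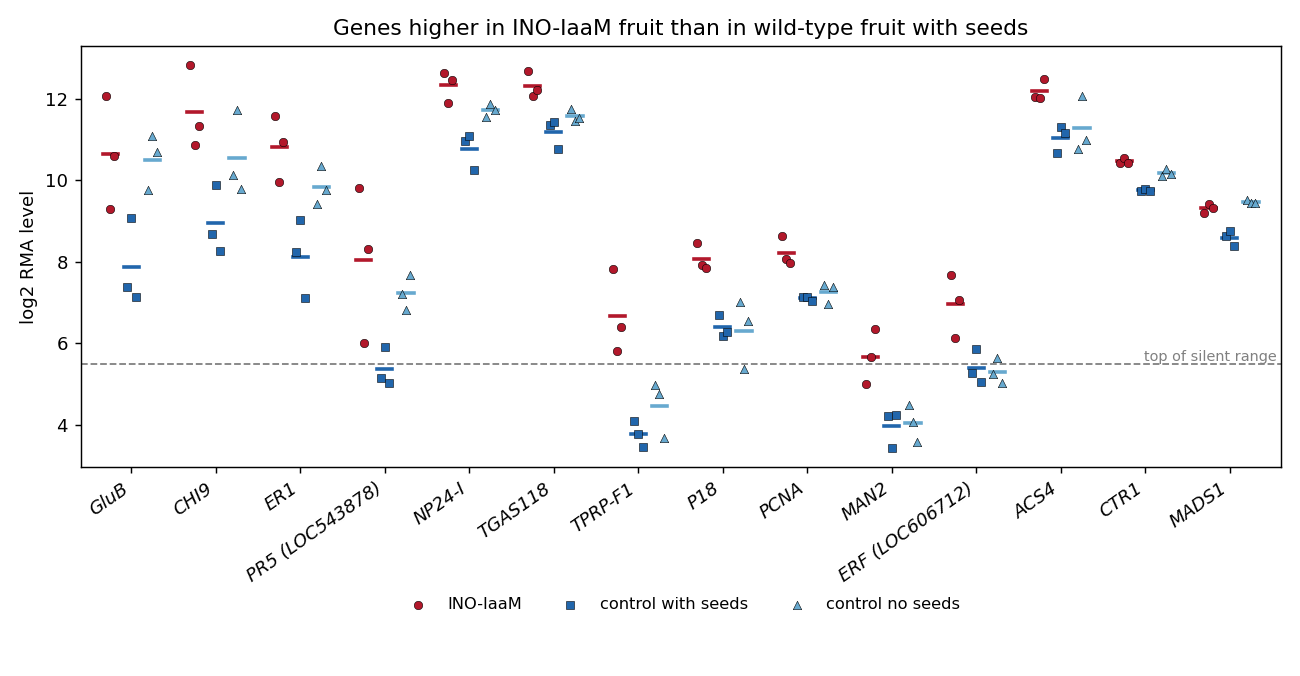
Levels (log2 RMA) of 14 genes on each array of INO-IaaM, control with seeds and control no seeds, with group means as bars and the top of the silent range as a dashed line. From TPRP-F1 to LOC606712 every seed-removed array lies below every INO-IaaM array, for GluB these groups overlap, and for MADS1 every seed-removed array lies above every INO-IaaM array.

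Among cell cycle genes, P18, PCNA, CycA3 and, within the silent range, CDKB1 were higher in INO-IaaM than in both controls. P18, a dUTPase that keeps uracil out of DNA, had 8.46, 7.92 and 7.86 in INO-IaaM, 6.70, 6.19 and 6.28 in seeded and 7.01, 5.37 and 6.54 in seed-removed fruit. It was higher by 1.69 ± 0.31 (adjusted p = 0.0032) and by 1.77 (adjusted p = 0.0076). PCNA, the sliding clamp of DNA polymerase, had 8.63, 8.07 and 7.98 in INO-IaaM, 7.13, 7.13 and 7.05 in seeded and 7.43, 6.96 and 7.37 in seed-removed fruit, higher by 1.13 ± 0.19 and by 0.97. CycA3, an A-type cyclin, was higher by 0.27 and 0.35. CDKB1 was called higher by 0.64 against each control, with the means of these groups in the silent range. Other cell cycle genes fell. CDKB2, a mitotic kinase, was at 3.97 to 4.41 in INO-IaaM, in the silent range, and at 5.41 to 6.04 in seeded wild type. Its fall was 1.42 (adjusted p = 0.00048).

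CDKA1, the main cell cycle kinase, fell by 0.73, and krp1, an inhibitor of such kinases, by 0.47. Cyclins CycA1, CycA2 and CycB2 lay in the silent range in both groups. In all, 4 of 13 cell cycle genes rose and 3 fell, a share of 53.8% beside 16.1% of all probe sets, and the list median was -0.06. The list counts were 3 rises and 2 falls without INO-IaaM array 2, 3 rises and 1 fall without INO-IaaM array 1, and 4 rises and 1 fall with the 5′ minus 3′ signal in the fit.

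TPRP-F1, a proline-rich protein known from young fruit, had 7.83, 5.80 and 6.40 in INO-IaaM and 4.09, 3.78 and 3.44 in seeded wild type, all of the last in the silent range. It was higher by 2.91 ± 0.56 (adjusted p = 0.0043) and by 2.21 than the 4.98, 4.75 and 3.68 of seed-removed fruit (adjusted p = 0.038). MAN2, a mannanase that loosens mannan-rich walls, had 5.00, 5.65 and 6.34 in INO-IaaM, 4.22, 3.44 and 4.25 in seeded and 4.48, 4.06 and 3.58 in seed-removed fruit. It rose by 1.70 ± 0.38 against seeded fruit (adjusted p = 0.0095), and of these arrays only INO-IaaM 2 and 3 lay above the silent range. LOC606712, an ethylene response factor also known as TERF1, had 7.67, 6.12 and 7.06 in INO-IaaM against 5.28, 5.85 and 5.05 in seeded fruit. Its difference of 1.56 did not keep its call when array 1 or 3 of either group was left out (about 1.2 to 1.98, adjusted p up to 0.11).

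Cell wall genes showed no common direction. Of 45 measured, 4 rose and 4 fell, a share close to the 16.1% of all probe sets, and the list median was 0.00. Besides MAN2, the galactosidases TBG1 and TBG7 rose by 0.57 and 0.85 and the pectin esterase PE1 by 0.41. Besides EXPA10, the galactosidase TBG2 fell by 0.86 ± 0.11 (adjusted p = 0.00022), the xyloglucan transferase XTH3 by 0.88, and exp18 was called lower within the silent range. PG2, the main polygalacturonase of ripening, had 12.79, 13.12 and 12.90 in INO-IaaM and 12.44, 12.03 and 12.60 in seeded wild type, a difference of 0.58 that did not pass (adjusted p = 0.18). Among 24 genes of sucrose, hexose and starch, sus3, AGP-S2 and SPS rose by 0.38, 0.26 and 0.19, and each of these calls was lost with at least 1 array left out: without any of the 6 for SPS (0.17 to 0.22), without any but INO-IaaM 2 for sus3 (0.30 to 0.44), and without array 1 or 2 of either group for AGP-S2 (0.20 to 0.32). The share called was 12.5%, below the 16.1% of all probe sets. TIP, a vacuolar water channel, had 8.70, 9.65 and 10.27 in INO-IaaM and 8.30, 7.32 and 8.30 in seeded wild type. Seed-removed fruit had 9.42, 9.06 and 9.09 (difference 0.35, adjusted p = 0.63). Against seeded fruit TIP rose by 1.56. This call did not hold when seeded array 2 or INO-IaaM array 3 was left out (about 1.2 to 1.99, adjusted p up to 0.063).

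Of 10 MADS-box factors, 3 rose and none fell, a share of 30% beside 16.1% of all probe sets. MADS1 had 9.21, 9.43 and 9.31 in INO-IaaM, 8.62, 8.76 and 8.38 in seeded and 9.52, 9.44 and 9.45 in seed-removed fruit, a rise of 0.73 (adjusted p = 0.0069) with a difference of -0.15 from seed-removed fruit. TDR4, a FRUITFULL-like factor, rose by 0.40, with 12.84 to 12.86 in INO-IaaM and 12.37 to 12.53 in seeded wild type. Its difference from seed-removed fruit was 0.08 (adjusted p = 0.62). TDR8 rose by 0.47, and the call did not hold when seeded array 3 or INO-IaaM array 2 or 3 was left out (0.36 to 0.54, adjusted p up to 0.13). RIN, the ripening factor, differed by 0.18 (adjusted p = 0.49). NOR, a NAC factor required for ripening and chosen after its values were seen, had 12.37, 12.42 and 12.56 in INO-IaaM, 11.61, 11.65 and 11.57 in seeded and 11.85, 11.92 and 11.71 in seed-removed fruit. It was higher by 0.84 (adjusted p = 0.0012) and by 0.62 (adjusted p = 0.018).

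None of 14 carotenoid and isoprenoid genes, none of 5 photosynthesis genes and none of 4 heat shock genes passed. In the heat shock list vis1 had 4.70, 4.58 and 4.87 in INO-IaaM and 5.80, 9.27 and 6.62 in seeded wild type, a difference of -2.51 (adjusted p = 0.18) in which seeded array 2 stood far above the others. Of 12 redox genes 4 rose and GLB2 fell, a share of 41.7% beside 16.1% of all probe sets. MDHAR, which regenerates ascorbate, rose by 0.75, with 8.20 to 8.49 in INO-IaaM and 7.46 to 7.81 in seeded wild type, and the rises of GSH1, GSH2 and cat1 were 0.27, 0.42 and 0.28. GSH1 lost its call without any of the 6 arrays, cat1 without any but seeded array 2 and GSH2 without 4 of them, with differences of 0.23 to 0.32, 0.23 to 0.37 and 0.29 to 0.50. Without INO-IaaM array 2 there was 1 rise in this list, and none with the 5′ minus 3′ signal in the fit. Of 7 14-3-3 proteins 2 were called, a share of 28.6% beside 16.1% of all probe sets. TFT7 rose by 0.56 ± 0.11 (13.09 to 13.12 in INO-IaaM, 12.32 to 12.71 in seeded fruit) and tft8 by 0.40, a call that did not hold when seeded array 1 or 3 or INO-IaaM array 2 or 3 was left out (0.33 to 0.48).

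**Figure D4:**
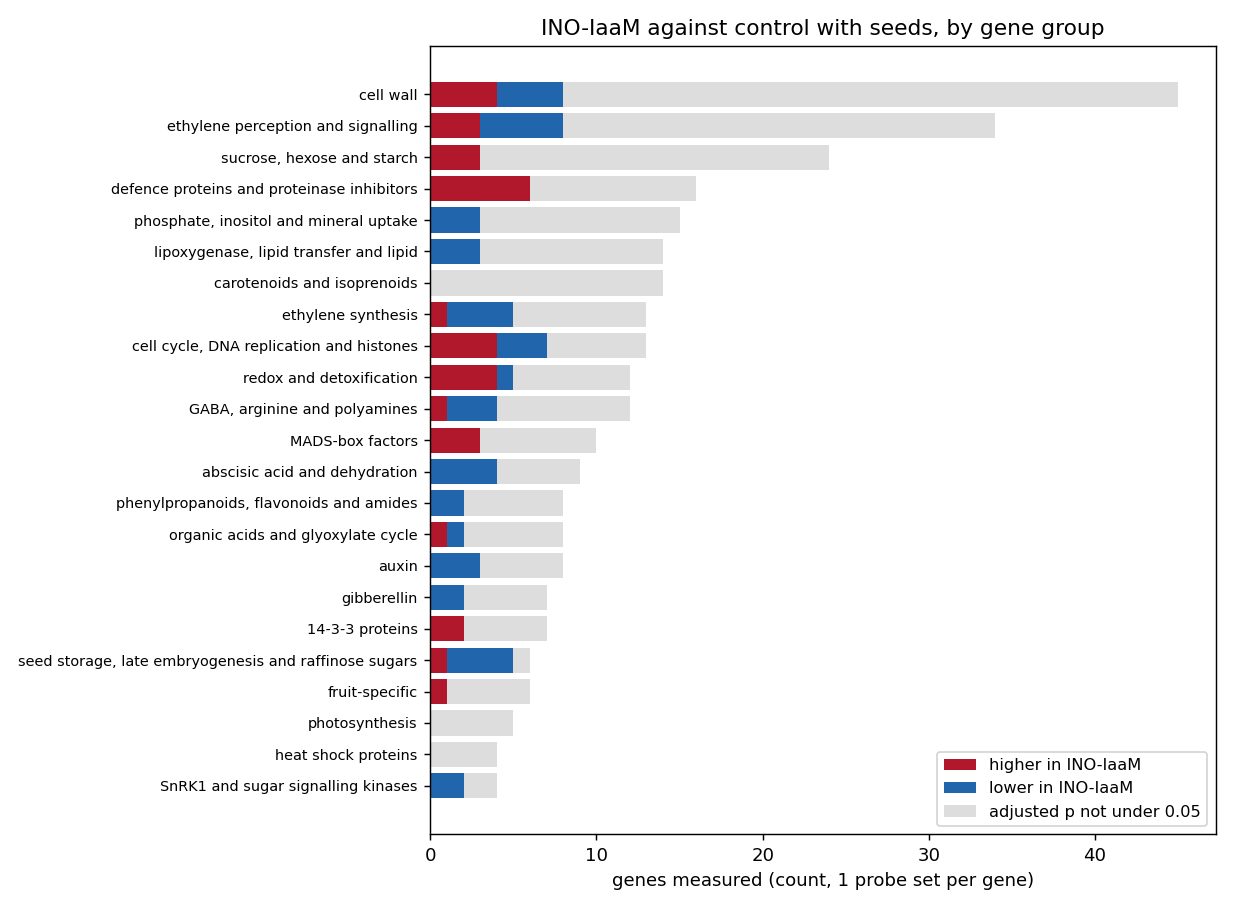
Number of genes measured in each of the 23 gene groups, split into those higher in INO-IaaM, those lower in INO-IaaM and those whose adjusted p was not under 0.05, against control with seeds. The defence, MADS-box, sucrose, 14-3-3 and fruit-specific groups hold rises and no falls. The abscisic acid, auxin, gibberellin, SnRK1, lipid, phenylpropanoid and phosphate groups hold falls and no rises. The carotenoid, photosynthesis and heat shock groups hold no calls. Of all probe sets 8.26% were called higher and 7.88% lower.

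The 3 INO-IaaM plants were not alike in the genes that changed most, but arrays of the other groups also varied. A standard deviation over 1 was found at 99 probe sets in INO-IaaM. It was found at 78 in seeded wild type, 84 in seed-removed wild type, 91 in DefH9-IaaM and 76 in INO-RolB. AGAL was at 5.09, 3.73 and 7.96 in seed-removed wild type and at 4.93 and 7.47 in DefH9-RolB. Among the 110 probe sets lower by at least 2, replicate 2 was the highest INO-IaaM array in 73, and in 30 of them by more than 1, while replicates 1 and 3 were highest by that much in 1 each. The median level of the 110 was 5.09, 6.41 and 5.02 in INO-IaaM replicates 1 to 3, against 8.77, 8.78 and 9.01 in seeded wild type and 6.72, 5.59 and 6.57 in seed-removed wild type. A probe set with no gene name in the annotation used was at 3.95, 9.95 and 4.17 in INO-IaaM and at 12.98, 12.45 and 12.79 in seeded wild type. A further 7 probe sets were lower by at least 2 and not called, and in 6 of them replicate 2 exceeded both other INO-IaaM arrays by more than 1. Replicate 1 instead was highest in 11 of the 17 probe sets that rose by at least 2, by more than 1 in 8 of them.

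A probe set of Psy1, phytoene synthase 1 of carotenoid synthesis, showed another pattern and was chosen after its values were seen. It had 9.74, 6.53 and 10.50 in INO-IaaM and 6.87 to 7.33 in seeded wild type, and none of the 14 arrays of the other groups was above 7.33. The groups overlapped and the difference of 1.77 did not pass (adjusted p = 0.0933). The other 2 probe sets of Psy1 did not share this pattern. The one of highest mean level was at 13.97 or above on all INO-IaaM arrays and at 13.85 to 13.95 in seeded wild type (difference 0.08), and the third differed by 0.39 (adjusted p = 0.438). A gene named sph1, also chosen after its values were seen, had 3.52, 6.87 and 8.78 in INO-IaaM and 3.02 to 4.01 in seeded wild type (adjusted p = 0.0475), with replicate 1 inside the seeded range.

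**Figure D5:**
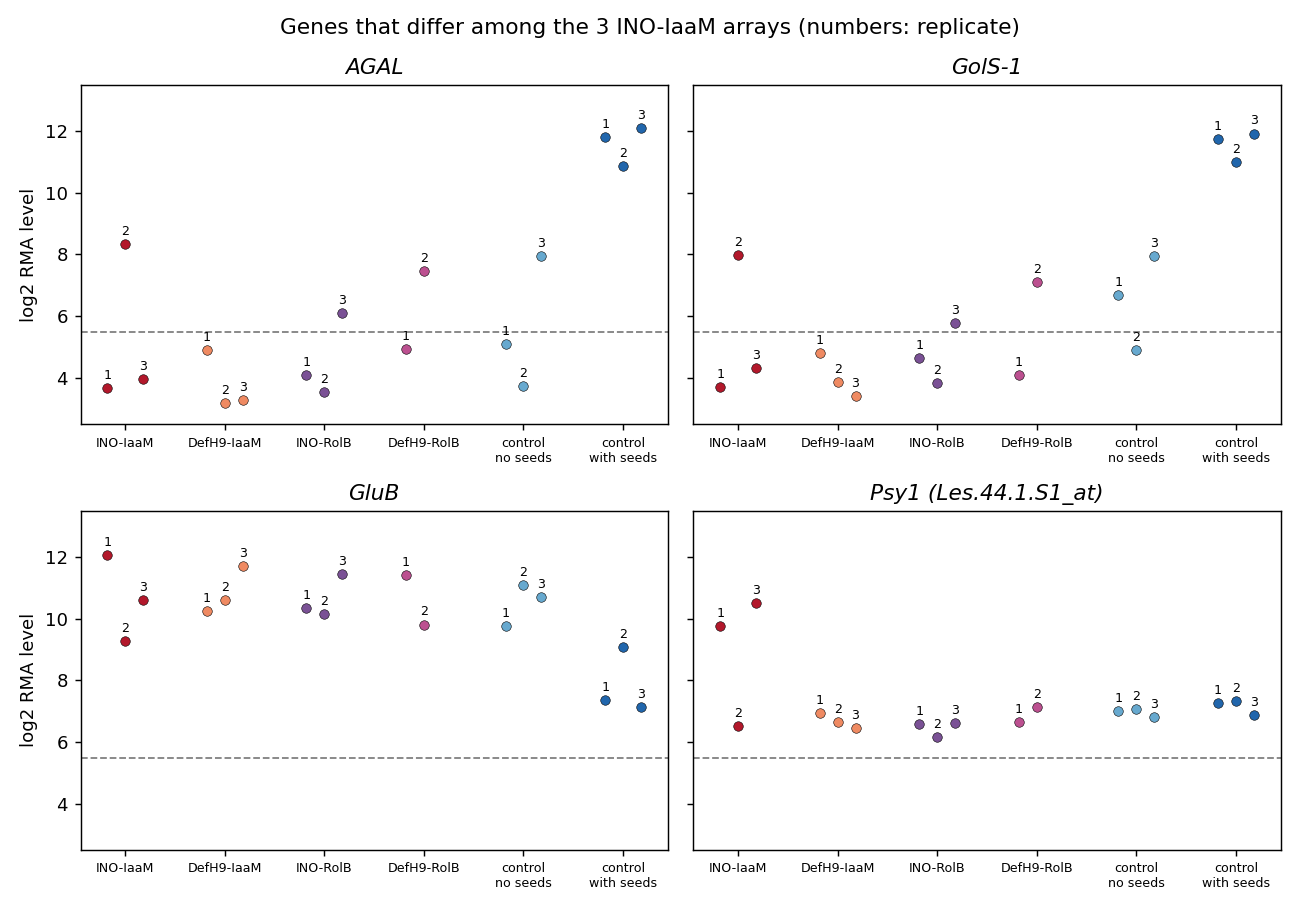
Levels (log2 RMA) of 4 probe sets on all 17 arrays by group, numbered by replicate, with the top of the silent range as a dashed line. INO-IaaM replicate 2 stands above replicates 1 and 3 for AGAL and GolS-1, replicate 1 is the highest for GluB, and for Psy1 replicates 1 and 3 lie above all other arrays.

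Between INO-IaaM and DefH9-IaaM, which share the transgene, no probe set was called by limma (0 of 10038), 373 had an unadjusted p under 0.05 (3.72%), and the lowest adjusted p was 0.999. Between INO-IaaM and INO-RolB, which share the promoter, none was called, 1086 had an unadjusted p under 0.05 (10.8%), and the lowest adjusted p was 0.114. The array controls BioC and BioB also set these groups apart. BioC less BioB signal was 1.16 to 1.26 on the INO-RolB arrays and 0.57 to 0.69 on the INO-IaaM arrays. A technical difference between these arrays therefore cannot be told apart from one between the transgenes. The 95% interval of a difference reached 0.30 to either side for the median probe set, and less than 1 for 97.1% of probe sets. A p above the threshold does not show that the lines are alike.

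MAN2 had the lowest p among named genes against DefH9-IaaM. Its 5.00, 5.65 and 6.34 in INO-IaaM compare with 4.30, 3.76 and 4.07 in DefH9-IaaM, a difference of 1.62 with an interval of 0.81 to 2.43 (adjusted p = 0.999). INO-IaaM array 1 and all DefH9-IaaM arrays lay in the silent range. The intervals here are not adjusted for the number of probe sets, and MAN2 was picked for its low p. P18 differed by -0.02 from DefH9-IaaM, with an interval of -0.69 to 0.64. TAS14 had 8.99, 9.03 and 7.41 in INO-IaaM and 12.05, 10.09 and 11.39 in INO-RolB, a difference of -2.70 with an interval of -3.90 to -1.51 (adjusted p = 0.171). ER5 was at 8.03 to 8.15 in INO-IaaM and at 11.63, 10.04 and 9.74 in INO-RolB, a difference of -2.39 with an interval of -3.72 to -1.07 (adjusted p = 0.211). SNF4 differed by 0.19 from INO-RolB, with an interval of -0.46 to 0.84. With all arrays, that probe set of Psy1 differed by 2.24 from DefH9-IaaM (adjusted p = 0.999) and by 2.47 from INO-RolB (adjusted p = 0.231). Without INO-IaaM array 2 it was called against both lines, higher by 3.44 and 3.67. It was chosen after array 2 was seen to be low, so these calls are no test of a difference. The other 2 probe sets of Psy1 differed by 0.001 and -0.60 from DefH9-IaaM and by 0.08 and -0.68 from INO-RolB.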

How the data were processed

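RNA was measured on Affymetrix tomato arrays, 1 per pool of 8 fruits. Per the submitters' processing notes the authors made the values with RMA, version not given in the sources used here. The deposited values are log2 RMA levels per probe set, and the log base was read from their range. Scanner files were not used here. The platform annotation gave 1 gene to 909 probe sets (803 genes) and no gene to 9129, and 885 matched RefSeq (assembly SLM_r2.1) by gene number. No genome build is named in the files, so no positions are given, and no sequences were at hand.

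With limma 3.58.1 under R 4.3.3, lmFit and eBayes gave 1 mean per group over all 17 arrays (11 residual degrees of freedom, prior 2.56). The Benjamini-Hochberg adjustment ran over 10038 probe sets with a threshold of 0.05. The comparisons were INO-IaaM minus control with seeds, control no seeds, DefH9-IaaM and INO-RolB. As far as the labels say, replicates are separate plants. The number of arrays limits the precision.

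Members, the 23 gene lists and the naming rule were chosen with earlier results of these data known. The rule used 1 probe set per gene, that of highest mean: the 12 largest rises and falls that passed without overlap of arrays, no more than 4 passing members per list, lowest p first, and the 5 largest per direction against control no seeds, DefH9-IaaM and INO-RolB. Other list members are given as part of their list. DDB1, gad2 and AAT were left out of lists to which their names, not their roles, had matched them. The fit was tested on simulated data. Replicate numbers were checked as pairs by the residual correlations of same-numbered arrays, which were 0.31, -0.11 and -0.07, so they were not treated as pairs. Alternatives were quantile normalization, median centring, a filter on the lowest 30 percent, array weights, a trended and robust eBayes, a replicate block, the 5′ minus 3′ signal as covariate, the 2 groups alone, stricter thresholds and each array left out. Tables and figures used Python 3.11.15, pandas 2.3.3 and matplotlib 3.10.9.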

Additional observations from a re-analysis of the deposited data

Results flagged for a closer look

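A pair of reporter probe sets outside the main comparison gave signal in INO-IaaM and levels in the silent range in wild type. RPTR-Les-U57609-2_s_at reached 10.317 on the lowest of the 3 INO-IaaM arrays and 10.8 on the highest (log2), against 3.75 to 4.09 on the 6 wild-type arrays. For RPTR-Les-A00196-1_s_at the INO-IaaM arrays spanned 10.254 to 11.4, against 3.83 to 4.36 in wild type. The labels do not say which parts of the constructs these probe sets detect.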

How the results depend on the processing

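Of the 63 named genes called against seeded wild type, 38 kept their call with any one of the 6 arrays left out, 50 without INO-IaaM replicate 2, 31 with the 5′ minus 3′ signal as covariate and 36 at an adjusted p of 0.01, and none changed direction. The 1620 calls became 2698 with array weights, 636 with the covariate, 605 at an adjusted p of 0.01, 418 with a difference of at least 1, and 836 to 1419 with 1 array left out. The calls against seed-removed wild type became 1260 with array weights, 240 with the covariate, 123 at 0.01, 199 with a difference of at least 1, and 247 to 531 with 1 array left out. Other settings stayed within 1.5 times. With 1 array left out there were 0 to 1 calls against DefH9-IaaM and 0 to 5 against INO-RolB, the 5 without INO-RolB replicate 1. Against INO-RolB array weights gave 1, the covariate 2 and the 2 groups alone 1. With the replicate block 1424 probe sets were called against seeded wild type and 58 of the 63 genes kept their call. Of the 3 same-numbered pairs of arrays, replicate 1 deviated together (residual r = 0.31) and replicates 2 and 3 did not (-0.11 and -0.07). Differently numbered arrays came near this, with 0.27 for INO-IaaM 2 and seeded 3 and 0.23 for INO-IaaM 3 and seeded 2. The share of calls that were lower was 48.8% and ranged from 42.1% with the filter to 62.9% with the covariate among the settings with all arrays and an adjusted p of 0.05 alone, and it was 64.6% at 0.01 and 78.5% with a difference of at least 1. RNA quality and group were partly confounded, and its part in the results was not tested beyond the covariate.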
